A study of Rattus norvegicus with 20 samples.

Results

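The imprinted Dlk1-Dio3 locus encodes a long row of miRNAs, and their levels in soleus muscle and dorsal root ganglia (DRGs) were followed through 3 kinds of sciatic nerve injury. The members were all rat miRNAs on the array whose number belongs to this locus, from miR-770 at one end to miR-410 at the other, chosen by name and not by their values. They came to 49 of the 348 miRNAs that carried 1 name in every file. All 20 arrays were from male Sprague-Dawley rats that had undergone surgery on the sciatic nerve, and none came from an unoperated rat. Each tissue had 1 sham-operated array and 3 arrays for each injury. In denervation the nerve was severed, a piece of it was taken out and 6 months passed. In entrapment a loose silastic tube was placed around the nerve for 6 months. In decompression the tube was removed after those 6 months and 3 more months passed. The soleus is a hind limb muscle supplied by the nerve, and the DRGs, from L4 to L6, hold the cell bodies of its sensory neurons along with glia. The Methods name 3 rats in the sham group as in each other group, against 1 sham array in each tissue, and do not say whether that array holds RNA of 1 rat or of several, nor which soleus and DRG arrays came from the same rat.

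In this locus the protein-coding genes Dlk1, Rtl1 and Dio3 are read from the paternal chromosome, while Meg3 and the other long noncoding RNAs, together with the miRNAs, are read from the maternal one. The miRNAs are thought to be cut from long shared transcripts. They are best known from brain and other neural tissue, where several of the miR-379 to miR-410 cluster respond to neuronal activity, and from embryonic, newborn and regenerating skeletal muscle, where the factor MEF2 has been tied to their expression. miR-127 lies antisense to Rtl1, a gene derived from a retrotransposon, and can direct its transcript to be cut. miR-134 acts on Limk1 in dendritic spines, and miR-494 has been tied to mitochondrial factors in muscle.

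All 49 members were matched to RefSeq entries (build GRCr8), where they come from 39 hairpins on the plus strand of chromosome 6, between positions 134298084 and 134579838, a span of 281.8 kb. They fall into 4 stretches in this order. The stretch next to Meg3 held 5 members, the stretch antisense to Rtl1 held 6, the stretch of the noncoding RNA Rian held 2, and the miR-379 to miR-410 cluster held 36 within 36.4 kb. The mature sequences of the members that the results turn on are printed 5′ to 3′ with the seed, bases 2 to 8, in capitals. The seed is the part that pairs with target mRNAs. Array names without a suffix were taken as the strand that carried the plain number when the array was designed, and a member whose strand was not certain, such as miR-337, is named only. The first set holds the members that stood out in soleus (miR-494 at chr6:134550163-134550185, miR-329 at chr6:134547973-134547994, miR-127 at chr6:134328510-134328531, miR-341 at chr6:134347871-134347891):
miR-494: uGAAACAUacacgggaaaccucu
miR-329: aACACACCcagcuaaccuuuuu
miR-127: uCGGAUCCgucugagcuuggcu
miR-341: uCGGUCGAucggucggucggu

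The second set holds some of the members whose DRG signal differed between entrapment and denervation. Among those lower after entrapment were miR-487b (chr6:134562939-134562960), miR-541 (chr6:134578434-134578458) and miR-379* (chr6:134543496-134543517). The result for miR-379* depended on the processing, as described later, and so did that for miR-410, which was higher (chr6:134579808-134579828):
miR-487b: aAUCGUACagggucauccacuu
miR-541: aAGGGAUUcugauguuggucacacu
miR-379*: cUAUGUAAcaugguccacuaac
miR-410: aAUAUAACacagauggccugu

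The third set shows how alike some neighbours are, which bears on how well a probe can tell them apart:
miR-376a: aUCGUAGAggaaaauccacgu
miR-376b-3p: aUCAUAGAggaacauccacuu
miR-376c: aACAUAGAggaaauuucacgu
miR-300-3p: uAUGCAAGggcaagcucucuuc
miR-381: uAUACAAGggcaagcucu

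miR-376a differs from miR-376b-3p at 3 of 21 positions and from miR-376c at 4, and miR-376b-3p from miR-376c at 5. miR-300-3p and miR-381 differ at 1 of the 18 positions they share. miR-300-3p was nevertheless detected on all 10 DRG arrays and miR-381 on none of the 20 arrays. Of the 37 members whose mature strand could be named with certainty, no 2 shared a seed of 7 bases, so each of the 37 carries a seed of its own. The window from 250 bases before to 50 bases after the RefSeq start of Meg3, the noncoding RNA at the head of the row (GRCr8, chr6:134273806-134274105, plus strand), is shown as the start of the row. Of the 16 members tested in the muscle, 10 to 13 were lower than sham after each injury by the fold rule described later. Over all miRNAs tested the share was 18.5% to 27.2%. Without scaling of the arrays 3 members were lower after denervation and 3 after entrapment. Whether this window bears on those levels was not tested:
Meg3 promoter: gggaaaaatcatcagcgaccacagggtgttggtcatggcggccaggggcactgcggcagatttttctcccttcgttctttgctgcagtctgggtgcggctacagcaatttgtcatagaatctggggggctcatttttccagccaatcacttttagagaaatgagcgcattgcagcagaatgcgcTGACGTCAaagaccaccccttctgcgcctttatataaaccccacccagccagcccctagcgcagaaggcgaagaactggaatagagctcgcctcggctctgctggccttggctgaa

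The capitals mark TGACGTCA, the binding motif of the CREB and ATF factors, which reads the same on both strands and is found once. It occurs in 1.83% of the 33469 promoter windows of that length. The MEF2 motif, searched on both strands, was found 0 times in the window and occurs in 3.29% of the windows. A match is only a run of letters, and its absence says only that the letters are not in this window.

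Signals are the authors' scanner intensities, summed over the probes of each miRNA, scaled here so that arrays of a tissue have the same 75th percentile. Signals at or under a detection floor were set to it (2.71 in soleus and 2.31 in the DRGs) before log2 was taken. The levels of different miRNAs come from different probes and are not set against each other. The members were far more widely detected in the DRGs than in the muscle. On all 10 DRG arrays 31 of the 49 were detected, against 173 (49.7%) of all 348 miRNAs. On all 10 soleus arrays 4 of the 49 were detected (miR-136, miR-434, miR-487b and miR-494), against 108 (31.0%) of the 348. On at least 1 array, 38 members were detected in the DRGs and 22 in soleus, and 21 of them in both. miR-300-5p was detected only in soleus. The 17 members detected only in the DRGs were miR-323, miR-369-5p, miR-376a*, miR-376b-3p, miR-376b-5p, miR-377, miR-379*, miR-380, miR-409-5p, miR-431, miR-433, miR-485, miR-493, miR-495, miR-541, miR-543* and miR-758. The 10 members detected on no array were miR-323*, miR-369-3p, miR-370, miR-381, miR-382*, miR-412, miR-540, miR-543, miR-673 and miR-770. The stretch next to Meg3 was the least detected, with 2 of its 5 members on any DRG array, whereas all 6 members antisense to Rtl1 were detected on every DRG array.

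Across the arrays of a tissue, other features also moved. The 75th percentile of the soleus arrays spanned 6.20-fold, and the sham array was the dimmest at 409.4, close to denervation 3 at 413. The DRG arrays spanned 1.62-fold. The muscle markers miR-1, miR-133a, miR-133b, miR-206 and miR-499 summed to between 56279 and 342043 in soleus and between 252 and 401 in the DRGs on the scales of each tissue. The soleus sham, denervation 1 and denervation 2 files lack a line that heads the other files. In them 11, 12 and 15 control signals over 20 recur, digit for digit, on some other array of the muscle. Of these, 3, 9 and 5 match only a different control feature. Such recurrences also came to 8 on denervation 3, 6, 8 and 1 on entrapment 1 to 3, and 8, 0 and 0 on decompression 1 to 3. No member's signal recurred in that way, and no control signal of the DRG arrays did. Every soleus comparison with sham rests on the 1 sham array, which is among those with such recurrences, and has no value without it. miR-499, a muscle miRNA of slow fibres, was not detected on the soleus sham array. Of the 6 neuronal markers, miR-124, miR-9 and miR-183 were detected on no soleus array, miR-96 on none but decompression arrays, miR-182 on none but denervation arrays, and miR-128 in every soleus group. Whole pieces of tissue were measured, so fewer cells of a type and less RNA per cell cannot be told apart.

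The levels of the 2 tissues were compared first. Over all 20 arrays, scaled together and compared by limma with condition and tissue as terms, 33 of the 37 members tested were higher in the DRGs, 1 was lower and 3 did not pass (miR-134, miR-409-3p and miR-487b). Of these 37, 16 were detected on no soleus array and passed the detection filter through the DRGs alone, so that they had to be higher there, and all 16 were. Of the 21 detected on at least 1 soleus array, 17 were higher, 1 was lower and 3 did not pass. Over all 234 miRNAs tested, 59.4% were higher and 17.9% lower in the DRGs. The median log2 difference was 3.07 for the 37 members and 0.94 for all miRNAs tested. The members' median includes the 16 that had to be higher, so the filter in part sets it. For 24 members, 11 of them among these 21, every DRG array lay above every soleus array, as it did for 36.3% of all miRNAs tested. The limma calls counted 33 or 34 members when any 1 injury array was left out, and 32 without the soleus sham, denervation 1 and denervation 2 arrays.

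miR-376a, whose seed is known to be edited from A to I in brain, had the largest difference among the members. Its signal ran from 284 to 377.4 (median 347) on the DRG arrays and from -8.36 to 24.9 (median 0.496) on the soleus arrays, a log2 difference of 6.47 ± 0.28 (SE, n = 10 arrays in each tissue, limma adjusted p = 1.7e-13). The arrays of the 2 tissues did not overlap. miR-410 differed by 5.09 ± 0.32 and miR-127 by 5.01 ± 0.32. miR-127 ran from 373 to 565 in the DRGs and from 5.51 to 101 in soleus, where the sham array was the highest. miR-379, the first of the large cluster, differed by 4.75 ± 0.33, miR-376b-3p by 4.69 ± 0.07 and miR-341, a rodent miRNA of the Rian stretch, by 4.47 ± 0.36. The floor was reached in soleus by several of these members, so their differences depend on where it lies. miR-376b-3p was detected on no soleus array and had to be higher in the DRGs. Its soleus values all lay at the floor, so its SE holds no spread from the muscle. miR-431, which has been studied in the outgrowth of sensory axons, differed by 3.66 ± 0.09 and was not detected in soleus.

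**Figure D1:**
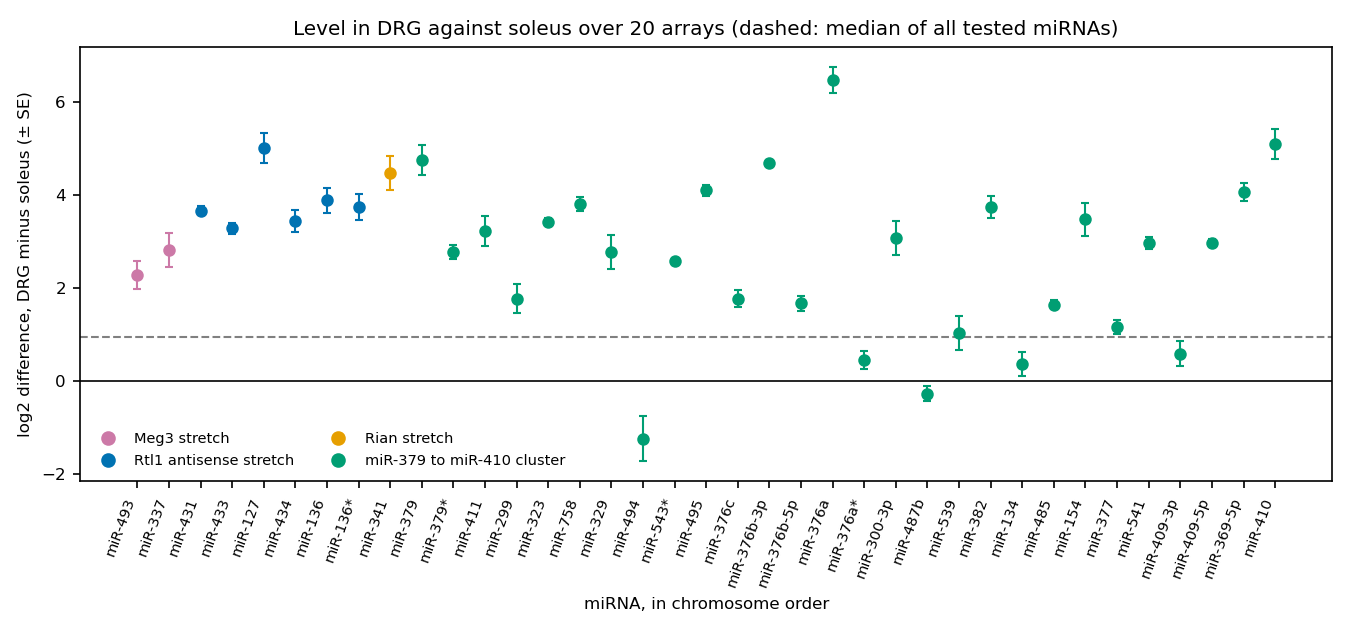
Points are the log2 difference of the DRGs minus soleus for the 37 members tested, in chromosome order, with bars for the standard error over 20 arrays; colours mark the 4 stretches and the dashed line the median of all 234 miRNAs tested, 0.94. Members of every stretch lie above the dashed line, miR-376a highest at 6.47, and miR-494 is the only member significantly below 0, at -1.24. The 16 members detected on no soleus array had to lie above 0 and are drawn like the rest.

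miR-494 went the other way, by -1.24 ± 0.48 (limma adjusted p = 0.026). On the scale of both tissues its signal was 8775 on the soleus sham array and 153 on the DRG sham array, while the medians over the arrays were 179 in soleus and 132 in the DRGs. The soleus sham array stood far above the rest, and the ranges of the 2 tissues overlapped.

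In the muscle, 16 of the 49 members were detected on at least 3 of the 10 arrays and were tested among 173 miRNAs. The comparison with sham asks how the levels changed after each injury. The fold rule of the Methods, read as a departure from the sham array of at least 2-fold, in the same direction, on all 3 arrays of an injury, was set beside limma, which takes its spread from the 9 injury arrays because 1 sham array gives none. After denervation 10 members were lower by the fold rule and 1 was higher, against 18.5% and 15.6% of all miRNAs tested, and limma called 10 lower and 0 higher (15.0% and 11.6% of all). After entrapment 10 were lower and 0 higher (27.2% and 11.0% of all), and limma called 10 lower and 0 higher (19.7% and 9.83%). After decompression 13 were lower and 0 higher (27.2% and 13.3% of all), and limma called 12 lower and 0 higher (22.0% and 9.83%). The median log2 difference of the members was -2.56, -2.55 and -3.35 after denervation, entrapment and decompression, against -0.07, -0.37 and -0.25 over all miRNAs tested. The 3 comparisons share the same sham array and are not independent of each other.

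miR-494 had the largest difference from sham of the members in each injury group. Its scaled signal was 9750 on the sham array, 255, 1010 and 747 on denervation 1 to 3, 199, 177 and 164 on entrapment 1 to 3, and 194, 219 and 174 on decompression 1 to 3. All 9 injury arrays lay below sham, and the denervation arrays lay above all entrapment and decompression arrays. The log2 difference was -4.08 ± 0.64 after denervation (SE, adjusted p = 0.0024 by limma), -5.76 ± 0.64 after entrapment (limma adjusted p = 0.00024) and -5.65 ± 0.64 after decompression (limma adjusted p = 0.00025). Without any scaling these were -2.60, -4.13 and -4.29, and the first no longer passed limma (adjusted p = 0.15).

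The members antisense to Rtl1 are next. miR-127 was at 113 on the sham array, at 27.9, 15.2 and 16.8 after denervation, at 27.4, 10.9 and 12.5 after entrapment, and at 8.28, 6.42 and 10.9 after decompression. Every injury array was at least 4-fold below sham. Its log2 difference was -2.55 ± 0.58, -2.86 ± 0.58 and -3.75 ± 0.58 in the 3 injury groups (limma adjusted p = 0.013, 0.0085 and 0.0016). miR-136 was at 198 on the sham array and ran from 16.9 to 73.1 on the injury arrays. It was 4.80-fold lower after denervation, 4.44-fold after entrapment and 10.2-fold after decompression, past limma each time. miR-434, whose denervation arrays (27.7 to 52.3) spanned the sham value of 51.3, passed limma only after decompression, by -1.87 ± 0.61 (adjusted p = 0.045).

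miR-341 of the Rian stretch was at 36.7 on the sham array. It was detected on 2 of 3 denervation arrays and on none of the 6 arrays of the other injuries. The difference from sham was thus at least 10.6-fold after entrapment and at least 13.3-fold after decompression (limma adjusted p = 0.0044 and 0.0029). Each bound uses the lowest signal among detected miRNAs of each array, or the signal of the miRNA itself where that was higher. It compares means of log2 scaled values and is a bound on that scale only. miR-337, of the stretch next to Meg3, was at 51.4 on the sham array, at 7.22, 3.82 and 8.54 after denervation, at 9.96, 5.97 and 4.45 after entrapment, and at 3.41, 22.0 and 3.83 after decompression. All 9 injury arrays were lower than sham, decompression 2 least so. Its log2 difference was -3.06 ± 0.98, -3.0 ± 0.98 and -2.96 ± 0.98 (limma adjusted p = 0.048, 0.046 and 0.047), and it lost the call when any 1 denervation or entrapment array was left out, or decompression 1 or 3 (limma adjusted p = 0.056 to 0.11). It was also lost after all 3 injuries without scaling, with the other percentile set, with loess, with no filter, with the processed values as deposited and with a replicate block (limma adjusted p from 0.060 to 0.83).

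In the miR-379 to miR-410 cluster, 11 members were tested, of which 6 were lower by the fold rule after denervation, 6 after entrapment and 8 after decompression. miR-329 was at 138 on the sham array, at 14.0, 10.05 and 23.7 after denervation, at 8.58, 6.40 and 10.05 after entrapment, and at 5.95, 21.3 and 7.14 after decompression. Its log2 difference was -3.21 ± 0.72, -4.08 ± 0.72 and -3.84 ± 0.72 (limma adjusted p = 0.012, 0.0040 and 0.0040). In the authors' processed table the value of miR-329 departs from the scanner signal on 3 arrays, and on the sham array it corresponds to an unscaled 147 in place of 54.7. miR-300-3p was at 142 on the sham array and ran from 7.93 to 59.8 on the injury arrays, entrapment 1 highest. It was 9.88-fold lower after denervation, 5.74-fold after entrapment and 15.4-fold after decompression (limma adjusted p = 0.011, 0.033 and 0.0037).

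Members that the decompression arrays no longer detected were miR-376a, miR-379, miR-410 and miR-411, in addition to miR-341 and miR-539. Against their sham signals of 27.7, 27.0, 37.5 and 30.2 they were at least 10.01-fold, 8.81-fold, 13.1-fold and 10.95-fold lower, and all 4 passed limma (adjusted p = 0.0048, 0.025, 0.0025 and 0.013). After denervation 3 of the 4 passed limma, and miR-379 did not (adjusted p = 0.21). The call of miR-411 after denervation was lost without denervation 2 or without denervation 3 (limma adjusted p = 0.072 and 0.062). The median scanner signal of the 82 miRNAs detected on no array was -1.26 on the soleus sham array and -1.57 to -1.19 after denervation. It was -4.56 to -3.92 after entrapment and -7.29 to -4.33 after decompression. With each array's median first subtracted, the members' median log2 difference from sham was -2.14, -2.02 and -2.20 after denervation, entrapment and decompression. Over all miRNAs tested it was -0.11, -0.33 and -0.17.

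**Figure D2:**
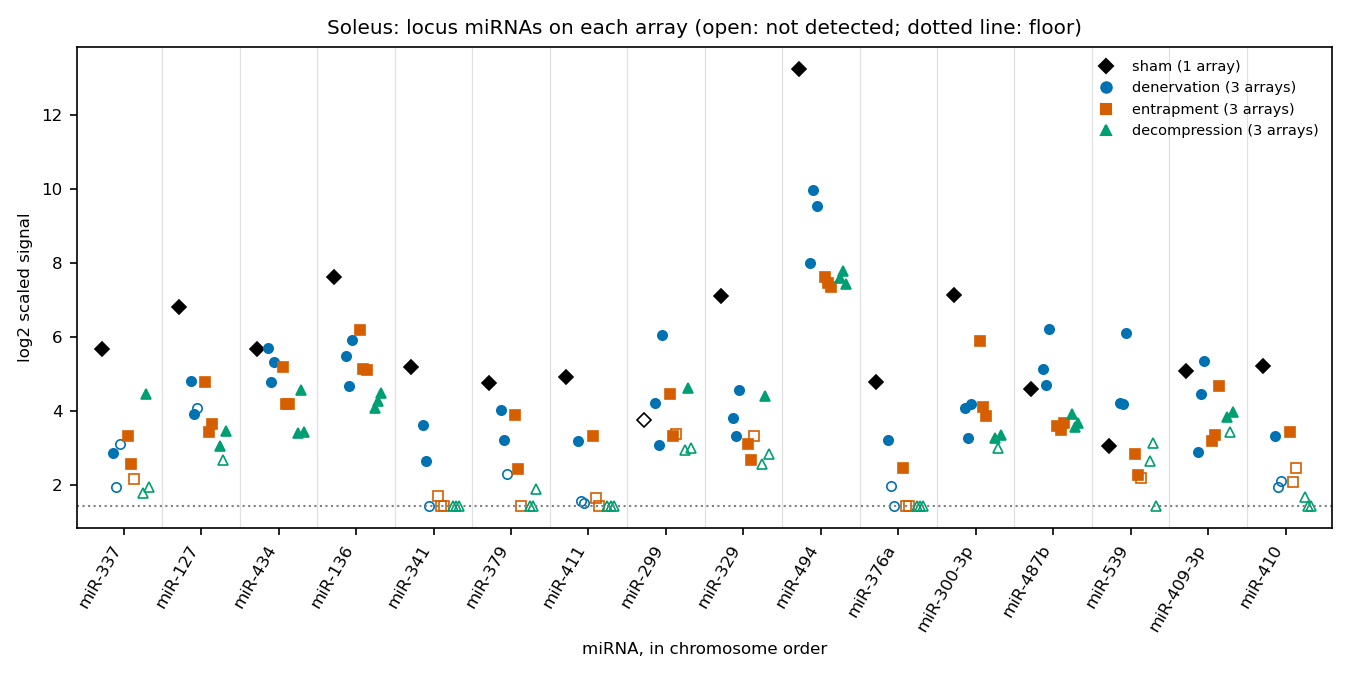
Each point is 1 soleus array, with log2 scaled signal on the vertical axis and the 16 members tested in chromosome order on the horizontal axis; open symbols were not detected and the dotted line is the floor. The black sham symbol lies within or below the injury arrays for miR-434, miR-299, miR-487b, miR-539 and miR-409-3p, and above all of them for the remaining members. It is a single array, and the share of all miRNAs tested with such a position was not taken.

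After denervation 5 of the 11 members of the cluster were not lower by either rule, miR-379, miR-409-3p, miR-539, miR-487b and miR-299. miR-409-3p was at 33.9 on the sham array and at 7.40, 22.0 and 41.2 after denervation (log2 -0.85 ± 0.87, limma adjusted p = 0.52). miR-539 was at 8.35 on the sham array and at 18.5, 18.1 and 69.4 after denervation, higher than sham by the fold rule but not by limma (log2 1.77 ± 0.84, adjusted p = 0.15). miR-487b was at 24.1 on the sham array and at 35.4, 26.2 and 74.6 after denervation (0.77 ± 0.52, limma adjusted p = 0.31). The sham array did not detect miR-299, and its 3 denervation arrays, at 18.4, 8.49 and 66.4, gave 0.70 ± 1.07 (limma adjusted p = 0.67). Denervation 3 was the highest soleus array for miR-409-3p, miR-539, miR-487b and miR-299.

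Because the sham array is the dimmest, the scaling raises it most. Without scaling the median of all miRNAs tested moved to 1.32, 1.04 and 1.02 after denervation, entrapment and decompression, and that of the members to -0.73, -0.92 and -1.97. limma then called 0 members after denervation and miR-494 alone after entrapment and after decompression, so the calls given above for the other members were lost without scaling. The fold rule then gave 3 members lower and 3 higher after denervation, and 3 lower and 0 higher after entrapment. Relative to the median of all miRNAs tested, between 12 and 15 of the 16 members lay lower in each comparison under every scaling that was tried. Denervation 3, whose brightness was nearly that of sham, can be set beside it with almost no scaling. On that array 11 of the 16 members were at least 2-fold below sham and 3 at least 2-fold above, against 52 and 42 of all 173. The summed scaled signal of the members other than miR-494 was 1050 on the sham array, 250 to 473 on the denervation arrays, 154.4 to 346 on those of entrapment and 105 to 202 on those of decompression. The muscle list summed to 196740 on the sham array, 96040 to 342043 on the denervation arrays, 56279 to 114626 on those of entrapment and 99281 to 102338 on the decompression arrays. Of the other marker lists in soleus, the endothelial pair miR-126 and miR-126* summed to 362 on the sham array and 1044 to 1708 on the injury arrays, and the neuronal list to 151 on sham and 128 to 254 on the injury arrays. The red blood cell pair summed to 1179 on sham and 196 to 2258 on the injury arrays, and the glial pair to 103 on sham and 49.2 to 210 on the injury arrays. The leukocyte list summed to 778 on sham, 595 to 961 after denervation and 394 to 544 after the other injuries. The part of these lists in the result was not tested.

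Between the injuries in soleus, limma called 3 members lower after entrapment than after denervation (11.6% of all miRNAs tested were lower) and 0 higher. They were miR-539 (-2.40 ± 0.59, adjusted p = 0.029), miR-487b (-1.77 ± 0.37, adjusted p = 0.016) and miR-494 (-1.69 ± 0.46, adjusted p = 0.042). miR-487b was at 12.0, 11.2 and 12.9 after entrapment, below all 3 denervation arrays. None of the 3 calls remained in the limma fit when any 1 of the entrapment arrays was left out, nor without scaling. Without the sham, denervation 1 and denervation 2 arrays, limma called 3 members, but denervation 3 was then the only denervation array, was assumed to vary like the other injury groups, and was the highest soleus array for miR-487b and miR-539, so these calls say nothing about stability. After decompression 2 members were lower and 0 higher than after denervation (12.7% and 1.16% of all), miR-539 (at least 5.40-fold, limma adjusted p = 0.026) and miR-487b (-1.64 ± 0.37, limma adjusted p = 0.023), with 1 call left without decompression 1 and 0 without decompression 3. Between decompression and entrapment limma called 0 members and 0 of all 173 miRNAs. At an unadjusted p under 0.05, 3 members were lower after decompression in that fit, miR-136, miR-300-3p and miR-410. The share of all miRNAs at that threshold was not taken, so this count is no result about the members.

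**Figure D3:**
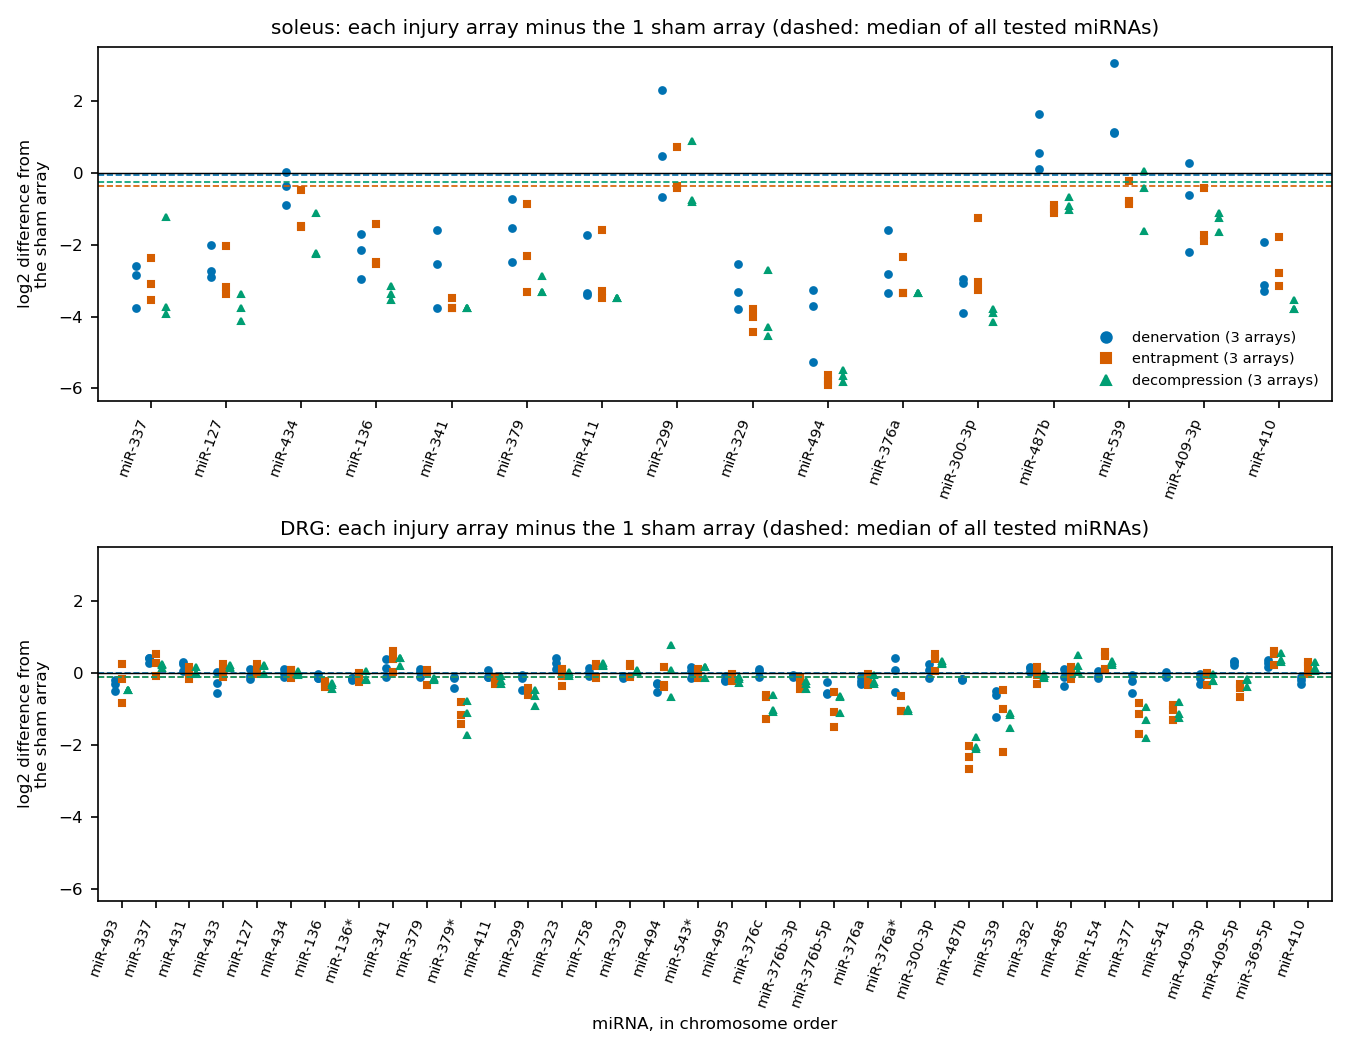
Each point is the log2 difference of 1 injury array from the sham array of its tissue, for the 16 members tested in soleus (upper) and the 36 tested in the DRGs (lower), in chromosome order; dashed lines mark the median of all tested miRNAs in each group. The median of the members in soleus is -2.56 after denervation, -2.55 after entrapment and -3.35 after decompression, while in the DRGs it is -0.08, -0.11 and -0.14, with miR-487b lowest.

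In the DRGs, 36 members were tested among 219 miRNAs, and most kept close to their sham value. The DRG labels of entrapment and decompression are those of the scanner files, and the authors' processed table has them exchanged. Results that tell these 2 DRG groups apart rest on that choice of labels. The 8 members with the highest median signal ran from 380.7 to 516 (miR-136), 351 to 464 (miR-127), 266 to 337.1 (miR-376a), 188 to 223 (miR-434), 117 to 180 (miR-410), 111 to 150 (miR-379), 93.0 to 147 (miR-300-3p) and 87.3 to 238 (miR-494) over the 10 arrays. After denervation 0 members passed the fold rule in either direction (0.913% of all were lower and 0.457% higher), limma called 0 (0% and 0.457% of all), and 0 had an unadjusted p under 0.05. After entrapment 1 member was lower by the fold rule (11.0% of all), and limma called 2 lower and 0 higher (17.4% and 2.28%). After decompression 3 were lower by the fold rule (13.7%), and limma called 4 lower and 0 higher (16.4% and 1.83%). The shares of the members were thus below those of all miRNAs. Their median log2 difference was -0.11 after entrapment and -0.14 after decompression, against -0.11 and -0.13 over all miRNAs tested. The number of members past the fold rule rose to 6 without entrapment 3 and to 6 without decompression 1. With an array left out, fewer arrays have to pass this rule and its count cannot fall.

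miR-487b had the largest difference of the members in the DRGs. It was at 30.8 on the sham array, at 27.5, 27.5 and 26.8 after denervation, at 4.81, 6.11 and 7.55 after entrapment, and at 8.93, 7.07 and 7.39 after decompression. The sham and denervation arrays lay well above the others, and no entrapment array detected it. By means of log2 values it was at least 5.09-fold lower than sham after entrapment (limma adjusted p = 0.00019) and 3.97-fold lower after decompression (limma adjusted p = 0.00057). Against denervation it was at least 4.51-fold lower after entrapment (limma adjusted p = 2.2e-05) and 3.52-fold lower after decompression (limma adjusted p = 5.6e-05). The call was also made in soleus between the same injuries, as given above. The bounds for miR-487b after entrapment hold only on the scale of these log2 values. With each array's background offset removed its differences were smaller, as given below.

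miR-541, from the distal part of the cluster, was at 27.0 on the sham array, at 25.3, 24.9 and 27.3 after denervation, at 10.9, 13.3 and 14.7 after entrapment, and at 15.4, 11.3 and 12.3 after decompression. The entrapment and decompression arrays lay below all of the rest. The log2 difference from sham was -1.07 ± 0.20 after both (limma adjusted p = 0.0065 and 0.0073). Against sham, limma also called miR-377 and miR-379* lower after decompression (adjusted p = 0.042 and 0.047), and the fold rule miR-539 and miR-376a* (limma adjusted p = 0.14 and 0.055).

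Against denervation, which has 3 arrays where sham has 1, limma called 8 members lower and 2 higher after entrapment (32.9% and 8.22% of all miRNAs tested). After decompression 9 were lower and 2 higher (27.9% and 8.68% of all). In both, miR-487b, miR-541, miR-377, miR-379*, miR-376a*, miR-376c and miR-409-5p were lower. miR-323 was lower only by the entrapment call, miR-299 and miR-136 only by the decompression call, and the difference between those 2 groups was called for 0 members and 0 of all 219 miRNAs, with 0 members at an unadjusted p under 0.05 in that limma fit. miR-410 was at 117, 134.3 and 126.7 after denervation, 142, 179 and 167 after entrapment and 151, 161 and 180 after decompression. It was higher by 0.36 ± 0.11 and 0.38 ± 0.11 (limma adjusted p = 0.034 and 0.031). miR-154 was higher after entrapment (0.45 ± 0.12, limma adjusted p = 0.021) and miR-433 after decompression (0.44 ± 0.15, limma adjusted p = 0.0499). Without scaling the differences of miR-410 were -0.08 and -0.05, and those of miR-154 and miR-433 were both 0.01. The 10 calls after entrapment fell to 5 without denervation 1, to 5 without denervation 3 and to 6 without entrapment 2. The 11 after decompression fell to 5 without denervation 1 and to 7 without denervation 3.

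Of the members called lower against denervation, miR-376a*, miR-376c and miR-377 were dim and detected on 5, 5 and 3 of the 10 DRG arrays. The background of the entrapment and decompression arrays was lower too. The median signal of the 82 miRNAs detected on no array was -1.47 on the DRG sham array, -2.24 to -1.44 on the denervation arrays, -6.35 to -5.26 on the entrapment arrays and -5.13 to -4.00 on the decompression arrays. Of 45 control features, 24 had all their sham and denervation arrays on one side of all the entrapment and decompression arrays in the DRGs, and 12 in soleus. When each array's median was first subtracted, miR-487b was still lower than sham by -1.43 after entrapment and -1.36 after decompression and lower than after denervation by -1.26 after entrapment and -1.20 after decompression, and miR-541 by -0.57 and -0.64, all past limma. In contrast, miR-376a* came to 0.07 and -0.07 and miR-377 to 0.12 and -0.11, none past limma.

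The array holds both strands of 10 hairpins. The 2 strands of a hairpin arise from the same precursor, and one of them usually prevails. In the DRGs, 4 of the 10 pairs were detected with both strands on all 10 arrays (miR-136, miR-376b, miR-379 and miR-409). miR-379 was at 129, 141 and 150 after denervation and 111, 147 and 142 after entrapment, a log2 difference of -0.08. Its other strand, miR-379*, was at 22.7, 18.5 and 22.5 and then at 9.20, 10.8 and 14.1, a difference of -0.92 ± 0.25 (limma adjusted p = 0.021). This call was lost with quantile scaling (-0.28, limma adjusted p = 0.32), loess (-0.55, 0.065), no filter (0.054) and the background offset removed (-0.42, 0.071). miR-409-3p differed by 0.04, and miR-409-5p by -0.76 ± 0.11 (limma adjusted p = 0.00083), from 23.0, 22.6 and 21.3 to 11.4, 13.5 and 14.7. The call of miR-409-5p was not followed through the other settings. Whether it depends on the lower background of the entrapment arrays was thus not tested. miR-136 and miR-136* differed by -0.21 and 0.04, and miR-376b-3p and miR-376b-5p by -0.18 and -0.59. Whether the strands of a pair differ from each other in their response was not tested. In miR-376a the strand detected on all 10 DRG arrays differed by 0.02, and miR-376a*, detected on 5, by -0.91. Of the remaining 5 pairs, miR-300-3p, miR-323, miR-369-5p, miR-382 and miR-543* were detected on all 10 DRG arrays and the partner strands on 0.

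**Figure D4:**
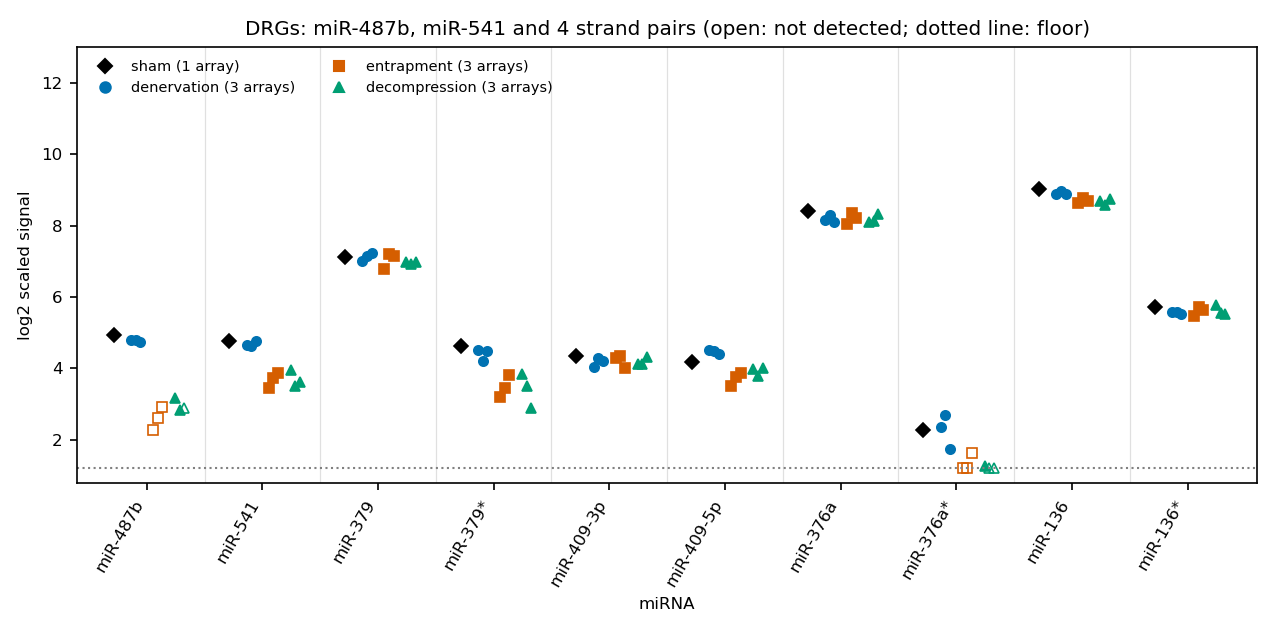
Each point is 1 DRG array, with log2 scaled signal on the vertical axis for miR-487b, miR-541 and both strands of 4 hairpins; open symbols were not detected and the dotted line is the floor. The entrapment and decompression arrays of miR-487b, miR-541, miR-379* and miR-409-5p lie below those of sham and denervation, while miR-379, miR-409-3p, miR-376a and miR-136 differ from denervation by -0.08, 0.04, 0.02 and -0.21 log2 units after entrapment. The background of the entrapment and decompression arrays was lower too.

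Whether the 2 tissues responded differently was tested directly. In a fit of 8 groups over 20 arrays, the difference between injury and sham was more positive in the DRGs than in soleus for 10 of the 37 members tested after denervation, 13 after entrapment and 16 after decompression. Over all 234 miRNAs tested the shares were 15.0%, 18.8% and 18.8%. The difference was more negative in the DRGs for 0, 1 and 1 members (8.55% of all in each). That 1 was miR-541, which no soleus array detected, so there was no response in the muscle to compare it with. Of the members more positive in the DRGs, miR-433 after entrapment and decompression was likewise detected on no soleus array, and the remaining 10, 12 and 15 were among the 21 detected there. Among these, miR-382 was called after entrapment and decompression, though neither the soleus sham array nor any soleus array of those injuries detected it. The same held for miR-136* after decompression. miR-494 differed most, by 3.69 ± 0.83, 5.77 ± 0.83 and 5.86 ± 0.83 (limma adjusted p = 0.0060, 0.00017 and 0.00013). Its DRG arrays ran from 87.3 to 238 around a sham value of 139. All these differences rest on 1 sham array in each tissue. Without scaling 0 members passed after denervation, and after entrapment and decompression 1 member did in each, miR-487b, which was then the more negative in the DRGs (-3.33 and -2.82).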

How the data were processed

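RNA of soleus and of DRGs was read on 20 Agilent rat miRNA arrays with 1 dye. The Methods describe ligation of a Cy3 dye, the labels an amplification. The authors deposited an intensity, error and detection call per miRNA and array, made by Agilent Feature Extraction 9.5.3 with the background subtracted and no normalization across arrays, and a table of processed intensities. In that table the DRG columns named for entrapment match the decompression scanner values and the reverse. Which labels are right was not settled, and those of the scanner files were followed. The intensities of an array were divided by their 75th percentile (over 108 miRNAs detected on all soleus arrays, over all 348 in the DRGs, and over 102 for both tissues), brought to a common scale, floored and taken to log2. Control features and 2 miRNAs named differently between files were left out. miRNAs detected on at least 3 arrays were tested with limma 3.58.1 (lmFit, eBayes) in R 4.3.3, two-sided with Benjamini-Hochberg adjustment at 0.05, over all tested miRNAs. The fits had 6 residual degrees of freedom within a tissue, 15 between tissues and 12 for the interaction. The spread of the 1 sham array was taken to be that of the injury groups. Nothing says which arrays were scanned together, so no batch was tested. The number of arrays limits the precision, and p-values measure the spread between these samples.

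Members named with values were those with the largest differences in each comparison (up to 5 lower and 5 higher), miR-329, miR-337 and miR-494, the 8 with the highest median per tissue, and both strands of a hairpin. Other members, such as miR-431, miR-434 and miR-410 in soleus, were named after their values were seen. The members and lists were chosen with earlier results of these data known. Fits were tested on simulated data. Alternatives were other scalings, no filter, a pseudocount, the processed table, a 1.5-fold rule, a replicate block, each injury array left out, and, chosen after seeing the data, removal of each array's background offset. Plots used matplotlib 3.10.9 under Python 3.11.15.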

Additional observations from a re-analysis of the deposited data

Results flagged for a closer look

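The difference between injury and sham departed between the tissues for the members with the largest tested interactions, which are given as the log2 change in the DRGs minus that in soleus with limma's adjusted p. After denervation it was 3.69 for miR-494 (adjusted p = 0.0060), 3.42 for miR-337 (adjusted p = 0.036), 3.37 for miR-300-3p (adjusted p = 0.0078), 3.10 for miR-329 (adjusted p = 0.0099) and 2.78 for miR-411 (adjusted p = 0.036), each by limma. After entrapment it was 5.77 for miR-494, 4.38 for miR-329, 4.15 for miR-341, 3.78 for miR-154 and 3.43 for miR-337 (limma adjusted p between 0.00017 and 0.031). After decompression it was 5.86 for miR-494, 4.40 for miR-300-3p, 4.21 for miR-341, 4.04 for miR-329 and 4.03 for miR-127 (limma adjusted p between 0.00013 and 0.0013). For all of these the soleus change was negative, from -5.85 to -2.85, and the DRG change lay between -0.40 and 0.51. After denervation the call of miR-337 was lost without DRG denervation 2 or 3 or soleus denervation 2, and that of miR-411 without any 1 DRG denervation array or without soleus denervation 2. After entrapment the call of miR-337 was lost without DRG entrapment 2 or soleus entrapment 2 or 3. The limma adjusted p of these lost calls lay between 0.051 and 0.065. miR-154 was detected on 2 of the 10 soleus arrays, so its soleus change against a sham signal of 32.2 rests on values that were mostly not detected. Without scaling none of the interactions named here passed limma. Each of them rests on 1 sham array in each tissue.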

How the results depend on the processing

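The counts of members past the rule or past limma were recomputed under every alternative, and 121 of 163 stayed within 1.5 times the main count. In soleus against sham, the count of 11 after denervation became 6 without scaling and 7 with the processed values as deposited. The 10 after entrapment became 3 without scaling, 5 with quantile scaling and 6 with the processed values as deposited, and the 13 after decompression became 8 with the processed values as deposited. Of these, 3 of the 6, 4 of the 7 and, after entrapment with the processed values, 3 of the 6 were higher than sham. Between entrapment and denervation in soleus the 3 became 0 without scaling, with quantile scaling, with the processed values as deposited and with the background offset removed, and 1 with loess and with a replicate block. Between decompression and denervation the 2 became 0 under the same first 4 settings and 1 with the other percentile set, loess, no filter and a replicate block. In the DRGs the 1 member lower after entrapment became 3 without scaling and with the scaled processed values, 2 with no filter, the processed values as deposited and limma, and 6 at 1.5-fold. The 3 after decompression became 8 without scaling and at 1.5-fold, and 1 with loess, a pseudocount, both forms of the processed values and the offset removed. The processed values have the DRG labels of entrapment and decompression exchanged, as given above. Their counts for these 2 groups, also in the interactions, thus use the other group's DRG scanner values. Against denervation, 10 and 11 became 22 and 21 without scaling, all of them lower. The interactions fell from 10, 14 and 17 to 0, 1 and 1 without scaling and to 0, 0 and 2 with the processed values as deposited, and the 14 became 9 with the other percentile set. The causes of the other changes were not tested.

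Leaving out an injury array gives the fold rule fewer arrays to pass, so its counts against sham could only stay or rise. Those counts are thus no measure of stability, whereas limma counts could fall. With 1 injury array left out, the counts ran from 11 to 12, 10 to 12 and 13 to 13 in soleus against sham, 0 to 3 for both comparisons with denervation and 0 to 0 between decompression and entrapment. In the DRGs they ran from 0 to 0, 1 to 6 and 3 to 6 against sham, 5 to 10 and 5 to 10 against denervation and 0 to 0 between decompression and entrapment. They ran from 33 to 34 between the tissues and 7 to 11, 11 to 17 and 13 to 17 for the interactions. Some DRG differences changed sign. miR-376a* after decompression against sham became 0.0053 with quantile scaling, 0.00077 with loess and 0.0098 with the offset removed. After entrapment against denervation it became 0.12 with quantile scaling and 0.074 with the offset removed, miR-377 became 0.29 and 0.12, and miR-410 became -0.081 without scaling. After decompression against denervation miR-377 became 0.21 with quantile scaling and miR-410 -0.054 without scaling. Same-numbered arrays deviated together with correlations from -0.47 to 0.20 in soleus, from -0.12 to 0.48 in the DRGs and from -0.22 to 0.27 between the tissues. For arrays of different numbers these ran from -0.48 to 0.55, from -0.50 to 0.32 and from -0.38 to 0.35. Correlations this scattered cannot tell whether equal numbers mark related samples. The replicate block changed no other count by over 1.5 times.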
